A study of Mus musculus with 6 samples.

Results

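Entry into mitosis was described here through 10 genes: the mitotic kinase Cdk1, its B cyclins and their direct regulators. They were taken by symbol from the gene table, which held 55401 mouse identifiers, and all 10 had a row. The study sequenced poly(A)-enriched RNA from ADC106, a mouse line derived from angiosarcoma, a malignant tumour of the cells that line vessels. Cells of the first group carried the genotype label WT and received 12.5 nM of an NC mimic. Cells of the second were labelled as overexpressing miR-497 and received the same dose of an miR-497 mimic, a synthetic duplex that loads a microRNA strand into Argonaute. RNA was collected on day 3, and each group had 3 libraries. Both groups had been transfected, untreated cells were not analysed here, and all libraries came from a single line. The labels do not say whether the 3 libraries of a group came from separate cultures, so the p-values measure only the spread between these libraries.

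Cdk1 bound to a B-type cyclin phosphorylates the proteins that take a cell from G2 into mitosis. Before that point the complex is held inactive by Wee1 and Myt1 (gene Pkmyt1), kinases that phosphorylate Cdk1, and the Cdc25 phosphatases remove those phosphates. Plk1 favours activation by acting on Cdc25 and on Wee1, while Chek1 and Chek2 restrain Cdc25 when DNA is damaged or replication is incomplete. Most of these genes are transcribed in a cell cycle wave that peaks in G2 and mitosis.

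The total counts were 28525751 to 36159499 in NC libraries and 25777676 to 32126726 in miR-497 libraries. Mitochondrially encoded genes took 2.03% to 2.15% of NC counts and 2.94% to 3.77% of miR-497 counts, and the part of this difference in the results below was not tested. Of 15 endothelial markers used as a check of the line, 14 were expressed well enough to be tested. With miR-497, 5 of them were lower and 7 higher, against 26.0% lower and 23.8% higher over all tested genes. The same shares apply to the other lists of this paragraph, and counts near them are not read as results about the lists. Pecam1 stood at 3554 CPM (a gene's counts per 1000000 counts of the library, after scaling) and Cdh5 at 2169 CPM in NC libraries, whereas Sox17 had 1 count in all libraries together. The summed level of the list was 10850 to 11570 CPM with NC and 10370 to 10910 CPM with miR-497. Of 10 fibroblast and mural markers, 8 were tested, with 3 higher and 2 lower. Their summed level was 364 to 381 CPM with NC and 532 to 640.0 CPM with miR-497. The higher genes were Col1a2 (129 to 286 CPM), Col1a1 (61.7 to 110.4 CPM) and Acta2 (37.1 to 70.3 CPM). The lower genes were Pdgfrb (52.8 to 40.8 CPM) and Thy1 (26.6 to 19.2 CPM), and Pdgfra, Rgs5 and Cspg4 were not called. Of the untested markers of this list, Lum had 0 counts and Dcn 0 to 4 counts per library. Of 10 blood cell markers, 5 had no count in any library, among them Cd3e and Itgam. The sum was 9.53 to 10.7 CPM with NC and 15.8 to 21.1 CPM with miR-497, most of it Cd68 (8.26 and 17.5 CPM). All 12 interferon-stimulated genes on a further list were lower, with sums of 3148 to 3552 CPM with NC and 551 to 599 CPM with miR-497. The part of these lists in the results below was not tested. All 10 of 10 listed targets of the miR-16 family were lower with miR-497 (median log2 fold change -1.15), against 26.0% of all tested genes. This list was drawn up with earlier results of these data known, so its count is a description and not an independent check of the labels.

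The guide strand and the places where it can pair with the members' transcripts are shown first, because pairing of bases 2 to 8, the seed, is the feature through which a microRNA recognises its targets. The labels give no sequence for the mimic. The mature mouse strand below is the RefSeq entry (GRCm38.p6, chr11:70234730-70234751, + strand), with the seed in capitals. It shares that seed with 9 other entries of the same table, among them miR-15a-5p, miR-16-5p and miR-195a-5p.
miR-497a-5p: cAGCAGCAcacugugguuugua

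A site was counted where the longest annotated 3' UTR of a gene (GENCODE M21) held TGCTGCT, the complement of the seed, or GCTGCTA, which pairs with the first 6 seed bases and has an A opposite base 1. TGCTGCT followed by A is called an 8mer. Of the 10 genes, 4 had at least 1 site: Cdk1, Cdc25b, Wee1 and Chek1. Wee1 had 0 counts and was not tested, so the shares below compare only with Cdk1, Cdc25b and Chek1 among the 9 tested genes. Of these, only Chek1 had an 8mer. Sites of any kind were found in 28.1%, and 8mers in 4.61%, of the 12856 tested genes whose 3' UTR is annotated. The 30-base windows below were chosen to show the 8mers of the checkpoint kinase Chek1 and of Wee1, the single site of Cdc25b, and 2 sites of the long Cdk1 3' UTR. Capitals mark the match, and the strand is that of the gene.
Chek1 (chr9:36710290-36710319, - strand, 8mer): tgcacattcctggtgaatagagTGCTGCTA
Wee1 (chr7:110142646-110142675, + strand, 8mer): tggaggccttgccttgtgaattTGCTGCTA
Wee1 (chr7:110142375-110142404, + strand, 7mer): ggggtgcgccactgtggtggtgTGCTGCTt
Cdc25b (chr2:131198063-131198092, + strand, 7mer): cagagcctcgctggtcagcactTGCTGCTg
Cdk1 (chr10:69337699-69337728, - strand, 7mer): tggaaaaggagccgtatcgctgTGCTGCTt
Cdk1 (chr10:69335653-69335682, - strand, 7mer ending in A): cctcagcttctgaagagaggagaGCTGCTA

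The Cdk1 3' UTR of 3352 bases held 4 sites, of which 2 overlapped, but the shortest annotated Cdk1 3' UTR, of 174 bases, held none. The Chek1 match began at base 38 of the 3' UTR and was present in the long form (1853 bases) and in the short form (178 bases). Wee1 had its 2 sites within 1174 bases. No site was found in Ccnb1 (1028 bases), Ccnb2 (227), Cdc25c (248), Pkmyt1 (124) or Chek2 (579), and Plk1 (283) held only the inner 6 bases. These are matches of letters in one annotation, and which UTR forms ADC106 cells use was not measured.

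Of the 10 genes, 9 had enough counts to be tested, and 8 of the 9 were lower with miR-497 by edgeR's quasi-likelihood test, which was adjusted by Benjamini-Hochberg over all 14661 tested genes and read at 0.05. The other, Chek2, was not called. Over all tested genes, 26.0% were called lower and 23.8% higher. The median log2 fold change of the 9 was -0.84, against -0.02 over all tested genes. All 3 miR-497 values lay below all 3 NC values for the same 8 genes, an arrangement shared by 29.6% of tested genes. Since RNA was taken from whole cultures, fewer cells in G2 and mitosis and less messenger RNA in each such cell cannot be told apart.

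**Figure D1:**
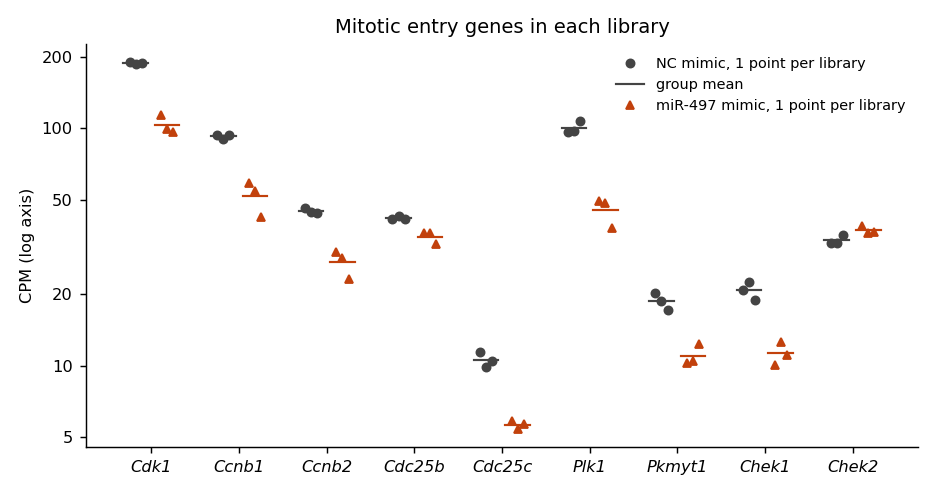
CPM on a log axis for the 9 tested genes, with 1 point per library (grey circles NC, orange triangles miR-497) and lines at the group means of 3 libraries. For 8 genes the miR-497 points lie below every NC point, with Plk1 and Cdc25c far apart and Cdc25b close; Chek2 is the gene whose miR-497 points lie above.

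Cdk1 (ENSMUSG00000019942; chr10:69335146-69352938, - strand) is the catalytic subunit of the mitotic kinase. It was at 189.7, 186 and 189 CPM in NC libraries 1 to 3 and at 114, 99.9 and 96.5 CPM in miR-497 libraries 1 to 3. The groups were widely separated, and the NC libraries differed by only 1.10% (coefficient of variation). The mean fell from 188 ± 2.08 to 103.5 ± 9.37 CPM (SD, n = 3), or by 45.1% (log2 change -0.86, standard error 0.061, and an edgeR adjusted p = 5.67e-09).

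Ccnb1 (ENSMUSG00000041431; chr13:100778650-100786570, - strand) encodes cyclin B1, the main activating partner of Cdk1. Its level was 93.7, 90.3 and 93.4 CPM with NC and 58.7, 54.2 and 42.4 CPM with miR-497. The lowest value was that of miR-497 library 3, which spread the miR-497 group to 16.2% against 2.01% for NC. The log2 change was -0.84 (standard error 0.0892, and an edgeR adjusted p = 7.08e-07), from 92.5 ± 1.86 to 51.8 ± 8.41 CPM (SD, n = 3). Reads of its annotated pseudogene Ccnb1-ps were few, at 0 to 6 counts per library.

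Ccnb2 (ENSMUSG00000032218; chr9:70407692-70421547, - strand) encodes cyclin B2, a second partner found mainly at the Golgi. Values of 46.2, 44.4 and 44.2 CPM with NC stood against 30.3, 28.6 and 23.2 CPM with miR-497. Again library 3 was the lowest of the miR-497 group and no values overlapped. Mean levels were 44.9 ± 1.12 and 27.3 ± 3.72 CPM (SD, n = 3), a log2 change of -0.72 (standard error 0.0879, and an edgeR adjusted p = 3.47e-06).

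The kinase that starts the positive loop, Plk1 (ENSMUSG00000030867; chr7:122159439-122169873, + strand), had the largest fall of the 9 and was the only one to change by at least 2-fold, as 5.19% of all tested genes fell. It was at 96.8, 97.1 and 107 CPM with NC and at 49.4, 48.3 and 38.1 CPM with miR-497. The highest miR-497 library lay far below the lowest NC library. The mean went from 100.3 ± 5.83 to 45.3 ± 6.22 CPM (SD, n = 3), a drop of 54.9% (log2 change -1.15, standard error 0.0849, and an edgeR adjusted p = 9.83e-09). An opposite-strand gene, Gm44985, covers 7.09% of the Plk1 exon bases and had no counts.

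The phosphatases that remove the inhibitory phosphates moved unequally. Cdc25c (ENSMUSG00000044201), which acts at the G2/M boundary, was at 11.5, 9.89 and 10.5 CPM with NC and at 5.85, 5.45 and 5.68 CPM with miR-497. Although it had the fewest reads of the tested genes (147 to 380 counts), its groups were well apart. Its fall of 46.7% gave a log2 change of -0.91 (standard error 0.133, and an edgeR adjusted p = 2.3e-05), from 10.6 ± 0.796 to 5.66 ± 0.203 CPM (SD, n = 3). Cdc25b (ENSMUSG00000027330; chr2:131186949-131198497, + strand), which activates Cdk1 at the centrosomes, stood at 41.6, 42.7 and 41.5 CPM with NC and at 36.4, 36.2 and 32.6 CPM with miR-497. The groups did not overlap, but the change was small, at 16.5% (41.95 ± 0.678 to 35.0 ± 2.15 CPM, SD, n = 3; log2 change -0.26, standard error 0.0708, and an edgeR adjusted p = 0.00555). Of this pair, Cdc25b has a 7mer site in its 3' UTR and Cdc25c has none.

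Of the kinases that hold Cdk1 inactive, Pkmyt1 (ENSMUSG00000023908; chr17:23726336-23736735, + strand) was measured at 20.3, 18.8 and 17.2 CPM with NC and at 10.3, 10.5 and 12.4 CPM with miR-497. Here miR-497 library 3 was the highest of its group, unlike for the cyclins and Plk1. The mean fell from 18.8 ± 1.54 to 11.0 ± 1.15 CPM (SD, n = 3), or by 41.1% (log2 change -0.76, standard error 0.108, and an edgeR adjusted p = 1.6e-05). Exons of Paqr4 on the opposite strand cover 8.76% of the Pkmyt1 exon bases. Paqr4 had 216 to 295 counts with NC and 115 to 118 with miR-497, and since the strand setting of the counting is not given in the sources used here, reads from the shared bases cannot be told apart.

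Wee1 (ENSMUSG00000031016; chr7:110122046-110143286, + strand), a known target of the miR-16 family, had 0 counts in all 6 libraries. Counts of 0 allow a level of up to 0.0830 to 0.116 CPM (3 counts per library, counting error only). That limit holds only if reads of the gene could be counted, and whether the 0 comes from the annotation or the counting was not tested. In GENCODE M21 no exon of another gene overlaps its 11 exons, and the antisense gene 1600010M07Rik, whose body spans the locus, had 60 to 129 counts. No direction can be given for Wee1. Its germline paralog Wee2 had 1 count in a single library.

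The checkpoint kinases differed. Chek1 (ENSMUSG00000032113; chr9:36708482-36727065, - strand), which responds to stalled replication and restrains Cdc25, was at 20.9, 22.5 and 19.0 CPM with NC and at 10.1, 12.6 and 11.2 CPM with miR-497. Every miR-497 library lay well under every NC library. It fell by 45.7%, from 20.8 ± 1.76 to 11.3 ± 1.28 CPM (SD, n = 3; log2 change -0.88, standard error 0.107, and an edgeR adjusted p = 3.26e-06). Chek2 (ENSMUSG00000029521; chr5:110839979-110874145, + strand), which acts downstream of Atm at DNA breaks, was at 32.9, 32.9 and 35.6 CPM with NC and at 39.0, 36.3 and 36.7 CPM with miR-497. The miR-497 values all lay above the NC values, an arrangement seen for 27.8% of tested genes. The difference missed the threshold (33.8 ± 1.58 and 37.3 ± 1.46 CPM, SD, n = 3; log2 change 0.14, standard error 0.0708, and an edgeR adjusted p = 0.105). Under upper-quartile scaling Chek2 was called higher (0.19, edgeR adjusted p = 0.0324), so the call depends on the scaling, while the log2 change was above 0 in all 13 alternatives.

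**Figure D2:**
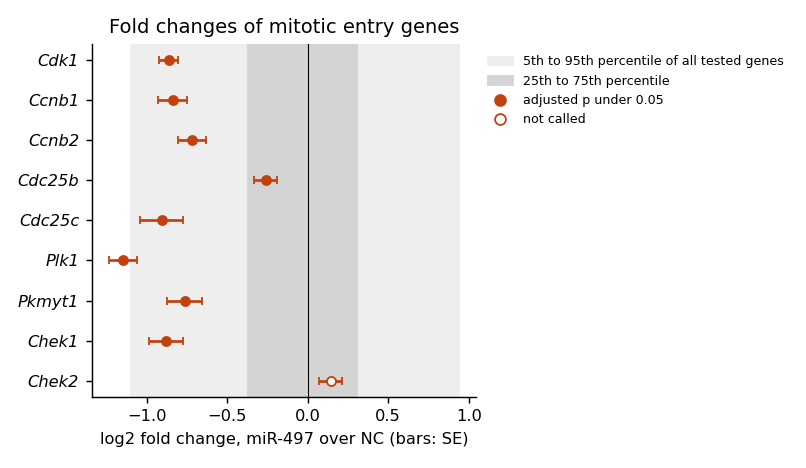
Log2 fold change of miR-497 over NC (points; bars are the standard error) for the 9 tested genes, over bands holding the central parts of all 14661 tested genes. Plk1 at -1.15 lies beyond the 5th percentile of -1.10, 6 genes lie between it and the 25th percentile of -0.37, and Cdc25b and Chek2 lie in the central band.

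Among tested genes ordered by fold change, Plk1 stood at percentile 4.52, and Cdc25c, Chek1, Cdk1, Ccnb1, Pkmyt1 and Ccnb2 between 7.62 and 11.7. Cdc25b stood at 31.4 and Chek2 at 63.5. The 6 genes of that middle range had log2 fold changes from -0.91 to -0.72 with standard errors of 0.061 to 0.133. These errors do not take into account that the genes were measured in the same libraries, so the order of the 6 is given as a description. Relative to the NC mean of each gene, the median over the 9 was -0.72, -0.77 and -0.89 on the log2 CPM scale in miR-497 libraries 1 to 3. Library 3 held the lowest value for 5 genes (Cdk1, Ccnb1, Ccnb2, Cdc25b and Plk1), and libraries 1 and 2 for 2 each.

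Levels of different genes were compared per kilobase of exon in NC libraries. Plk1 was highest (45.6 ± 2.65 CPM per kb; SD, n = 3), followed by Cdk1 (38.2 ± 0.421), Ccnb2 (29.3 ± 0.730) and Ccnb1 (21.9 ± 0.441). Chek2 (11.3 ± 0.527) and Cdc25b (11.3 ± 0.182) did not differ beyond their spread. The SD ranges of Pkmyt1 (5.15 ± 0.422) and Chek1 (4.49 ± 0.379) overlapped, although Pkmyt1 lay above Chek1 in every NC library. Cdc25c was lowest at 2.16 ± 0.162 CPM per kb. With the length of the longest coding transcript in place of all exon bases, Ccnb1 (37.2 CPM per kb) stood above Ccnb2 (29.3), so the order of the B cyclins depends on the length used. The other neighbours moved too. By that length Pkmyt1 (9.20) stood well above Chek1 (5.48), which was level with Cdc25c (5.46), Chek2 (14.9) stood above Cdc25b (13.6), and Cdk1 (43.0) came near Plk1 (45.6). Per kilobase of all exon bases in miR-497 libraries, Plk1 (20.6 ± 2.83 CPM per kb) and Cdk1 (20.97 ± 1.90) no longer differed beyond their spread, and Chek2 (12.4 ± 0.488) was level with Ccnb1 (12.3 ± 1.99). With the longest coding transcript, however, Chek2 was at 16.4 and Ccnb1 at 20.8 CPM per kb.

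Ratios of 2 genes within a library do not depend on how libraries are scaled, and 8 pairs were compared by exact 2-sided permutation tests. With 3 libraries against 3 the smallest p is 0.1, which is 0.2 after Benjamini-Hochberg adjustment over the 8 pairs here, so no pair could pass 0.05. The largest shift was in Chek1 over Chek2, from log2 ratios of -0.66, -0.55 and -0.91 with NC to -1.95, -1.52 and -1.72 with miR-497. That is a mean shift of -1.03, from 0.614 to 0.302 Chek1 reads per Chek2 read (exact permutation p = 0.1, adjusted 0.2). Cdc25b over Cdc25c was higher in every miR-497 library than in every NC library, moving from 1.86, 2.11 and 1.98 to 2.63, 2.73 and 2.52 on the log2 scale, or from 3.96 to 6.17 reads of Cdc25b per read of Cdc25c (exact permutation p = 0.1, adjusted 0.2). Plk1 over Cdk1 (mean shift -0.29) and Ccnb1 over Ccnb2 (-0.13) also separated the groups, with the same p.

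For cyclin B1 and its kinase the shift was smaller than the spread of the libraries. Ccnb1 over Cdk1 was at -1.02, -1.04 and -1.02 with NC and at -0.96, -0.88 and -1.19 with miR-497, with a mean shift of 0.02 (exact permutation p = 1). For the inhibitory kinase and its substrate, Pkmyt1 over Cdk1 shifted by 0.10 between overlapping groups (exact permutation p = 0.7, adjusted 0.8). Pkmyt1 over Cdc25c, the inhibitor over its opposing phosphatase, shifted by 0.14 (p = 0.3, adjusted 0.4, exact permutation), and Ccnb2 over Cdk1 by 0.14 (p = 0.2, adjusted 0.32, exact permutation). These p-values do not show that the ratios were equal. The SD of the 3 miR-497 ratios was 0.127 to 0.254 for these 4 pairs, so shifts smaller than that could not be seen.

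**Figure D3:**
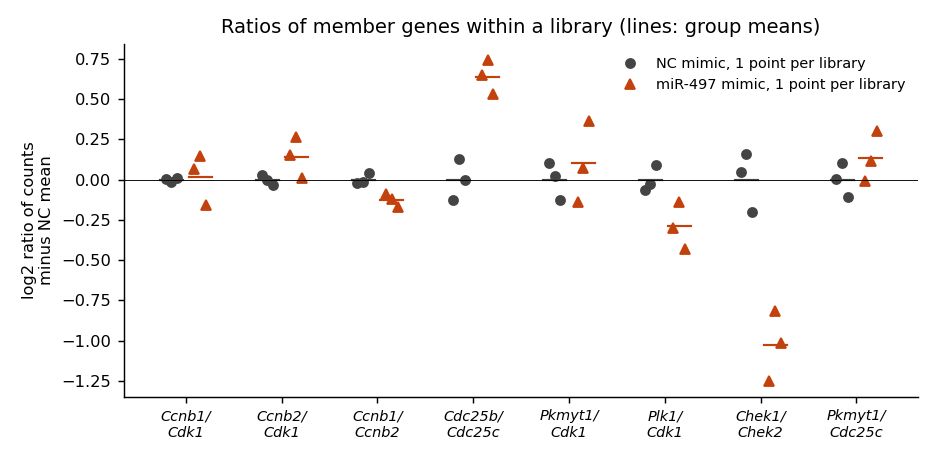
Log2 ratio of read counts of 2 genes in the same library, minus the NC mean of that pair, for 8 pairs (grey circles NC, orange triangles miR-497, lines are group means of 3 libraries). Chek1 over Chek2 falls by 1.03 and Cdc25b over Cdc25c rises by 0.64 with no overlap, while Ccnb1 over Cdk1 stays around 0.

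Promoters are shown because 8 of the members were called lower, against 26.0% of all tested genes, and many G2 and mitotic genes share 2 elements. One is the cell cycle homology region (CHR), which is bound by MuvB complexes and was searched here only as the cores TTTGAA and TTCGAA. The other is CCAAT, bound by NF-Y. RefSeq promoter windows (GRCm38.p6; 250 bases before the start to 50 after) were matched for 7 of the 10 genes: Cdk1, Ccnb1, Ccnb2, Cdc25b, Plk1, Chek1 and Chek2. Both strands were searched with overlaps allowed, and no words overlapped in the members. Of 27025 promoters of the same length, 19.4% held a CHR core, 37.9% held CCAAT, 12.2% held at least 2 CCAAT and 7.70% held both kinds. Of the 10816 belonging to tested genes, the shares were 14.2%, 38.9%, 14.9% and 5.97%. Below are bases -120 to 13 of 4 genes that fell and of Chek2, which was not called, in the direction of transcription; capitals mark the words, with ATTGG standing for CCAAT on the other strand.
Ccnb2 (chr9:70421542-70421674, - strand): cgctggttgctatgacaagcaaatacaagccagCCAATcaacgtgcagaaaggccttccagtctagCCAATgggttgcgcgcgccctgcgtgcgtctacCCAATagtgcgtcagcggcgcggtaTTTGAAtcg
Cdk1 (chr10:69352900-69353032, - strand): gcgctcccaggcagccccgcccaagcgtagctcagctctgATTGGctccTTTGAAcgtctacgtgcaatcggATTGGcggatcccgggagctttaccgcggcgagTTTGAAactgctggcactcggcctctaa
Ccnb1 (chr13:100786474-100786606, - strand): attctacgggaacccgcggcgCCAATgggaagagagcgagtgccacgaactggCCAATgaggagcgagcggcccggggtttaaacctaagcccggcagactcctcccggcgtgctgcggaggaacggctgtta
Cdc25b (chr2:131186828-131186960, + strand): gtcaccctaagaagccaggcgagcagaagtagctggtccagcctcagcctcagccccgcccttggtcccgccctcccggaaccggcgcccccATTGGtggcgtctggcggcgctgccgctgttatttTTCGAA
Chek2 (chr5:110839863-110839995, + strand): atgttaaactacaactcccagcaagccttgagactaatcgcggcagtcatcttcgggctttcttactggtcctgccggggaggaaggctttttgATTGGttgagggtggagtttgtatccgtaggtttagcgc

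In Ccnb2, 3 CCAAT words stood at -87, -54 and -21, each 33 bases from the next, with a CHR core at 5 after the start; a further core at -167 is outside the printed stretch. In Cdk1, CCAAT at -80 and -48, 32 bases apart, was followed by a core at -15, with another core at -71 and another CCAAT at -208. The pair in Ccnb1, at -99 and -67, was also 32 bases apart, with neither TTTGAA nor TTCGAA in the window. Cdc25b had 1 of each word, and so did Plk1, with CCAAT at -14 and TTTGAA at 31. Chek1, which fell by 45.7%, had neither word, and Chek2 had 2 CCAAT words, 160 bases apart, and no core. Of the 6 matched genes that fell, 4 held a CHR core, against 14.2% of the promoters of tested genes. Ccnb1, Chek1 and Chek2, which was not called, held neither of the cores searched. Other forms of the CHR were not searched, so a gene without these words may still have the element. Cdc25c and Pkmyt1 fell but had no matched window, and Cdc25b, with a core, fell by only 16.5%. Whether a core goes with a fall was not tested. A match describes letters in the window and is not evidence of binding in these cells.

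Genes around these 10 in the pathway were counted from lists drawn up with earlier results of these data known. Beside each count below stand the shares over all tested genes, 26.0% lower and 23.8% higher. Counts of higher genes such as 4 of 18 and 3 of 14 were near that share and are not read as results about the lists. No list was tested as a set. Of 12 partners and upstream activators of Cdk1, 10 were lower and 1 higher (median log2 fold change -0.52). Aurka, the kinase that activates Plk1 with its cofactor Bora, fell from 77.0 ± 3.77 to 32.1 ± 3.83 CPM (SD, n = 3; log2 change -1.27, standard error 0.0825, and an edgeR adjusted p = 2.25e-09). Ccnh, the cyclin of the Cdk-activating kinase, was higher (33.5 ± 0.560 to 43.3 ± 1.84 CPM; 0.37, edgeR adjusted p = 0.000243), and its kinase Cdk7 was not called (0.04, edgeR adjusted p = 0.708).

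The Greatwall pathway restrains PP2A-B55, the phosphatase that undoes Cdk1 phosphorylation. Of its 9 genes, 6 were lower and 1 higher (median -0.40). The scaffold Ppp2r1a fell from 243 ± 6.37 to 131 ± 9.55 CPM (SD, n = 3; -0.89, edgeR adjusted p = 2.34e-09), while Arpp19, a Greatwall substrate that inhibits the phosphatase, was higher (111 ± 6.31 to 136 ± 2.76 CPM; 0.29, edgeR adjusted p = 0.000318). Among 7 genes of 14-3-3 proteins, which hold phosphorylated Cdc25 in the cytoplasm, 5 were lower and 1 higher (median -0.20). Ywhah fell from 429 ± 17.7 to 144 ± 23.7 CPM (SD, n = 3; -1.57, edgeR adjusted p = 3.7e-10), and Ywhab was higher (364 ± 15.3 to 444 ± 18.6 CPM; 0.29, edgeR adjusted p = 0.000346).

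Upstream of Chek1 and Chek2, 9 of 17 damage and replication checkpoint genes were lower and 3 higher (median -0.27). Topbp1, the activator of Atr, fell from 142 ± 4.12 to 85.5 ± 3.34 CPM (SD, n = 3; -0.74, edgeR adjusted p = 8.85e-09), and Rad17, which loads the checkpoint clamp, was higher (22.8 ± 1.595 to 34.6 ± 2.36 CPM; 0.60, edgeR adjusted p = 1.02e-05). Outside the naming rule, and chosen after their values were seen, the upstream kinases Atm (-0.84, edgeR adjusted p = 1.45e-07) and Atr (-0.45, edgeR adjusted p = 0.00222) and the Chek1 adaptor Clspn (-1.09, edgeR adjusted p = 4.81e-08) were also lower. The remaining higher genes of the list, also outside the rule, were Rad1 (0.42, edgeR adjusted p = 0.00451) and Trp53bp1 (0.17, edgeR adjusted p = 0.0346).

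Of 14 genes listed for transcription of the G2/M wave, 8 were lower and 3 higher (median -0.24). Rbbp4, a MuvB subunit with other roles in chromatin, was higher (165 ± 7.08 to 254 ± 11.4 CPM, SD, n = 3; 0.62, edgeR adjusted p = 7.87e-08), and the pocket protein Rbl1 fell from 34.6 ± 2.12 to 18.8 ± 0.942 CPM (-0.88, edgeR adjusted p = 1.22e-07). Foxm1 and Mybl2, which bind MuvB in G2 and are named outside the rule after their values were seen, were lower, with log2 changes of -0.63 and -0.68 (edgeR adjusted p = 2.82e-06 and 1.06e-06). The remaining higher genes of this list, also outside the rule, were Lin37 (0.95, edgeR adjusted p = 1.13e-06) and Nfyb (0.30, edgeR adjusted p = 0.0126).

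A list of genes around cyclin B destruction and mitotic exit, which also holds an inhibitor of the anaphase-promoting complex (Fbxo5) and ubiquitin ligase subunits with other substrates (Btrc and Fbxw11), gave 9 lower and 4 higher of 18 (median -0.15). Ube2s, an E2 enzyme of the anaphase-promoting complex, fell from 102.5 ± 6.25 to 48.7 ± 3.77 CPM (SD, n = 3; -1.07, edgeR adjusted p = 2.18e-09). Fbxw11, a ubiquitin ligase subunit that acts on Wee1 and Cdc25a, was higher (165 ± 3.66 to 228 ± 6.78 CPM; 0.47, edgeR adjusted p = 8.6e-07). Of 16 genes whose products Cdk1 phosphorylates in mitosis, 12 were lower and 3 higher (median -0.55). Many of the lower genes encode condensin subunits (Ncapd2, Ncapg, Ncaph, Ncapd3, Ncapg2, Ncaph2, Smc2 and Smc4). All of these were lower, so the count is not one of unrelated substrates. The condensin subunit Ncapd3 fell from 51.0 ± 1.58 to 26.4 ± 2.53 CPM (SD, n = 3; -0.95, edgeR adjusted p = 3.58e-08), and the microtubule regulator Stmn1 was higher (122 ± 4.26 to 168 ± 2.59 CPM; 0.46, edgeR adjusted p = 1.07e-06).

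**Figure D4:**
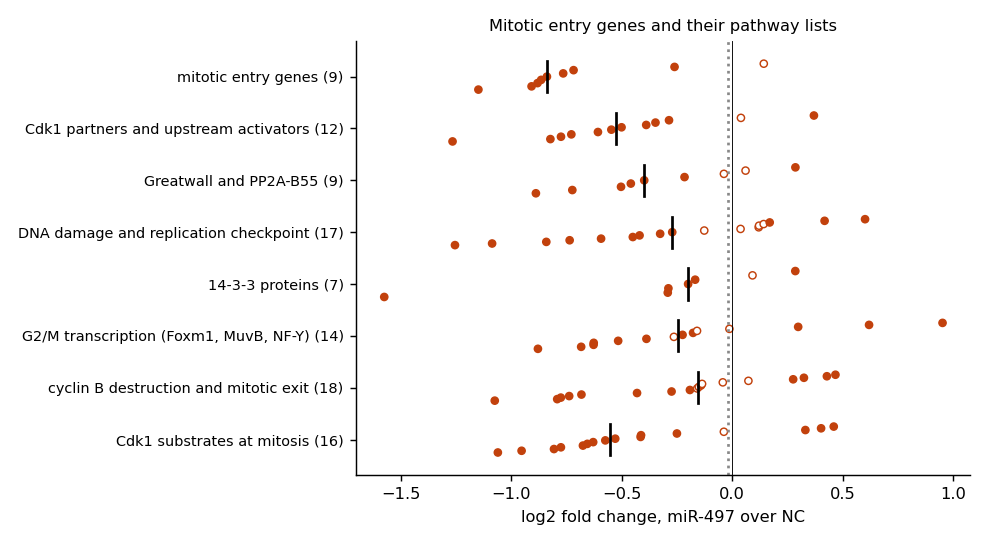
Log2 fold change of miR-497 over NC for each tested gene of the mitotic entry set and of 7 pathway lists (filled points have an adjusted p under 0.05; black bars are list medians; the dotted line is the median of all tested genes, and counts of tested genes are in brackets). The mitotic entry set has a median of -0.84, and the list medians run from -0.55 to -0.15.

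Paralogs of the members did not all move alike. Cdc25a, the phosphatase that acts mainly in G1 and S phase, fell from 114 ± 8.58 to 68.9 ± 7.10 CPM (SD, n = 3; -0.73, SE 0.0746, edgeR adjusted p = 4.55e-07). Plk4, the kinase of centriole duplication, fell from 30.6 ± 1.48 to 16.4 ± 3.13 CPM (-0.90, edgeR adjusted p = 4.33e-06), and Plk3 from 81.5 ± 2.62 to 63.4 ± 4.69 CPM (-0.36, edgeR adjusted p = 0.000187). Plk2, a stress-responsive member of the family, was higher, from 631 ± 22.8 to 932 ± 37.3 CPM (0.56, SE 0.0557, edgeR adjusted p = 3.16e-07). Ccnb3, Plk5 and Wee2 had too few counts to be tested.

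The 5 genes outside the set whose centred log2 CPM lay nearest to the mean profile of the 9 over the 6 libraries were Cd47, Scoc, Atf4, Tspan4 and Pisd, at Euclidean distances of 0.0583 to 0.0735. Their log2 fold changes ran from -0.72 to -0.67. The mean profile includes Chek2 (0.14) and Cdc25b (-0.26), and these 5 genes changed less than the median of the 9 (-0.84). The likeness rests on 6 libraries in 2 groups and is a description.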

How the data were processed

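The members and gene lists were chosen with earlier results of these data known. The deposited values were raw read counts per gene, not normalized by the authors. The submitters' processing notes name GRCm38, STAR 2.5.4b, featureCounts, Subread 1.6.1 and edgeR 3.32.1; the annotation release, strand setting and treatment of multiply aligned reads are not given in the sources used here. Groups and replicate numbers came from the sample titles. Symbols, exons and 3' UTRs came from GENCODE M21 (GRCm38), which matched 55141 of 55401 identifiers.

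Counts were tested with edgeR 4.0.16 in R 4.3.3: filterByExpr (minimum count 10, minimum total 15), TMM scaling, a quasi-likelihood F-test on group, and Benjamini-Hochberg adjustment over all tested genes at 0.05. CPM used TMM-scaled library sizes, and profiles used log2 CPM with a prior count of 2. The SE was the log2 fold change divided by the root of F. Ratios used counts plus 0.5 and exact permutation tests (scipy 1.17.1). The fit was tested on simulated data. Alternatives were DESeq2 size factors, upper quartile, no filter, genes with a mean of at least 50 counts, voom in limma 3.58.1, DESeq2 1.42.0 with its Wald test, the replicate block, and each library left out. Named in the text were all members and, per list, the called gene with the smallest adjusted p and that of the opposite direction, other genes being marked.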

Additional observations from a re-analysis of the deposited data

How the results depend on the processing

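The count of 8 lower members was the same under all 13 alternatives, while genes called higher ran from 3029 to 3998 and lower from 3374 to 3995 over all genes. Of 117 pairs of a member and an alternative, 116 changed neither sign nor call. The exception was Chek2, called higher with upper-quartile scaling (log2 fold change 0.19; edgeR adjusted p 0.0324, against 0.0324 to 0.266 over its alternatives). With the replicate block, 3177 genes were higher and 3563 lower, and no member's call changed; same-numbered libraries deviated from their group means with correlations of -0.12, -0.04 and -0.13, so the numbers were not taken as pairs. When single libraries were left out, Ccnb1 over Cdk1 ranged from -0.0465 to 0.106 and Pkmyt1 over Cdk1 from -0.0318 to 0.221, both changing sign; the cause was not tested. The other 6 ratios kept their direction under all alternatives run. With 8mer sites only, 2 members had a site, against 4.61% of tested genes. With the shortest 3' UTR 3 had one, Cdk1 being lost, against 16.7% of tested genes by that rule. Wee1, which was not tested, is among the members in both counts. The depth gave 147 to 6786 counts per library for the tested members, so the largest SE was that of Cdc25c, and Wee1, at 0 counts, gives no direction.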
